A study of Mus musculus with 13 samples.

Results

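The genes described here are 45 genes chosen by name as Sertoli cell transcription factors, secreted products and markers, read across RNA from whole testes of mice. Of the 45 names, 43 have a row in the deposited table of 25965 genes. Tf and Gstp1b have none under those symbols, although transferrin is listed as Trf and is described with the other Sertoli cell genes. Abp1 in this table lies on chromosome 6 from 48895254 to 48909188, where RefSeq places the amine oxidase gene Aoc1, so that row does not measure androgen-binding protein, which Shbg codes for. After a filter on low values (a mean of at least 1 RPM, reads scaled to library depth, over all libraries) 39 members were tested among 16235 genes. The 4 left out, Dmrta2, Abp1, Ptn and Bcat1, had means under 1 RPM in the control libraries and in those labelled KO alike.

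The series asks what Wfdc15a does in spermatogenesis. Its 13 libraries came from adult mice aged 15 weeks, with the tunica albuginea removed. By the labels 3 were WT, 4 were heterozygous (Wfdc15a+/-, Het) and 6 were Wfdc15a-/- (KO), and the design text pools WT and Het as the control group (n = 7). The strain, the structure of the allele and whether it was a germline deletion were not stated in the labels. Titles carry a further number of unstated meaning, which is 1 for KO replicates 1 to 3 and Het replicate 1 and 2 for all others.

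Sertoli cells are the somatic cells that line the seminiferous tubules and hold the germ cells through every step from spermatogonium to spermatid. They form the blood-testis barrier, secrete carrier proteins and growth factors into the tubule, and engulf dying germ cells and the residual bodies that spermatids shed. Their fate is set and kept by transcription factors such as SOX9 and WT1, and androgen and FSH act on the germ line through them.

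Between 4.22 and 10.1 M reads per library fell in listed genes, and 1 read was worth 0.0899 to 0.222 RPM. Wfdc15a itself was at 53.5, 58.2 and 85.8 RPM (lowest, median and highest of the 7 controls). The KO libraries of number 1 held 31.5, 19.4 and 33.4 RPM and those of number 2 held 54.1, 48.1 and 81.3 RPM. Only the number 1 libraries all lay below the controls, so samples are named by their label below. The log2 difference over all 6 was -0.66 (two-sided exact permutation p = 0.0338), with -1.21 for number 1 (exact p = 0.00833, the smallest that 3 against 7 libraries allow) and -0.11 for number 2 (exact p = 0.567). Left out singly, WT replicate 1, Het replicate 2, Het replicate 4 or KO replicate 1, 2 or 3 took the pooled exact p above 0.05 (0.0541 to 0.0821).

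Promoters of 3 members that rose are shown because their products carry the findings below. SHBG is the androgen carrier of the tubule, and AXL and MERTK are receptors for the uptake of dying germ cells. Each line gives the 250 bases before the RefSeq transcript start (GRCm38.p6), 5′ to 3′ on the gene's strand, with capitals marking motif matches. GATA factors were searched as AGATAA, with A or T as the first base and A or G as the last. SOX factors were searched as ACAAAG and, in the other spelling, as AACAAT. A single arm of the androgen receptor element was searched as AGAACA.
Shbg (chr11:69617906-69618155, minus strand): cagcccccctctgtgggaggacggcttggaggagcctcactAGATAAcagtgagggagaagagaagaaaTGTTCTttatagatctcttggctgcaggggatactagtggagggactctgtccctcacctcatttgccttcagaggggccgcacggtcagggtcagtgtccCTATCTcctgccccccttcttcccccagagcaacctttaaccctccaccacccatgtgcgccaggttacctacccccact
Axl (chr7:25788734-25788983, minus strand): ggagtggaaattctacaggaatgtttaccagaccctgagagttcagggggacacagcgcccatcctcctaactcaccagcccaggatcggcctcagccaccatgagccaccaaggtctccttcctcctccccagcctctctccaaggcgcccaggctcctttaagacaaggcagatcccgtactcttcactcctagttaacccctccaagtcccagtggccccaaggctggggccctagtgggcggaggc
Mertk (chr2:128698665-128698914, plus strand): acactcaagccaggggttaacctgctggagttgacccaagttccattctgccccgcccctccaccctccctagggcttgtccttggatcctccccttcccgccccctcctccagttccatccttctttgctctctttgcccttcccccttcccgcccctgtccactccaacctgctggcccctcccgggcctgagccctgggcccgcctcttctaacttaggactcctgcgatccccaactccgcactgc
The Shbg sequence holds 2 GATA matches and 1 androgen receptor match, and the Axl and Mertk sequences hold none. Both strands were searched, and overlapping matches were counted apart. RefSeq entries were found for 30 members, of which 21 start within 100 bases of the start in the deposited table. In windows of 300 bases (250 before to 50 after the start) a GATA match stood in 3 of those 21, against 25.9% of 16015 promoters of listed genes. A SOX match stood in 3 of 21 against 24.3%, and the androgen receptor letters in 3 of 21 against 16.6%. The 16015 promoters were the first entry of each gene, without the check of the start made for the 21. A match is only a run of letters, and no binding was measured.

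Sertoli cell genes stood higher under the KO label. Of the 39 tested members 20 rose and 1 fell, beside 18.4% of all tested genes that rose and 6.18% that fell (limma on log2(RPM + 1), Benjamini-Hochberg adjusted p under 0.05 over all 16235 genes). The members' median log2 difference was 0.59, against 0.16 over all tested genes, and 35 of the 39 were above 0. In 9 members every library labelled KO lay above every control, which holds for 5.06% of all tested genes. The largest difference was that of Rgs11 (log2 1.51) and the only fall that of Jag1 (log2 -0.72). In whole-testis RNA a larger share of Sertoli cells and more RNA per Sertoli cell cannot be told apart.

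**Figure D1:**
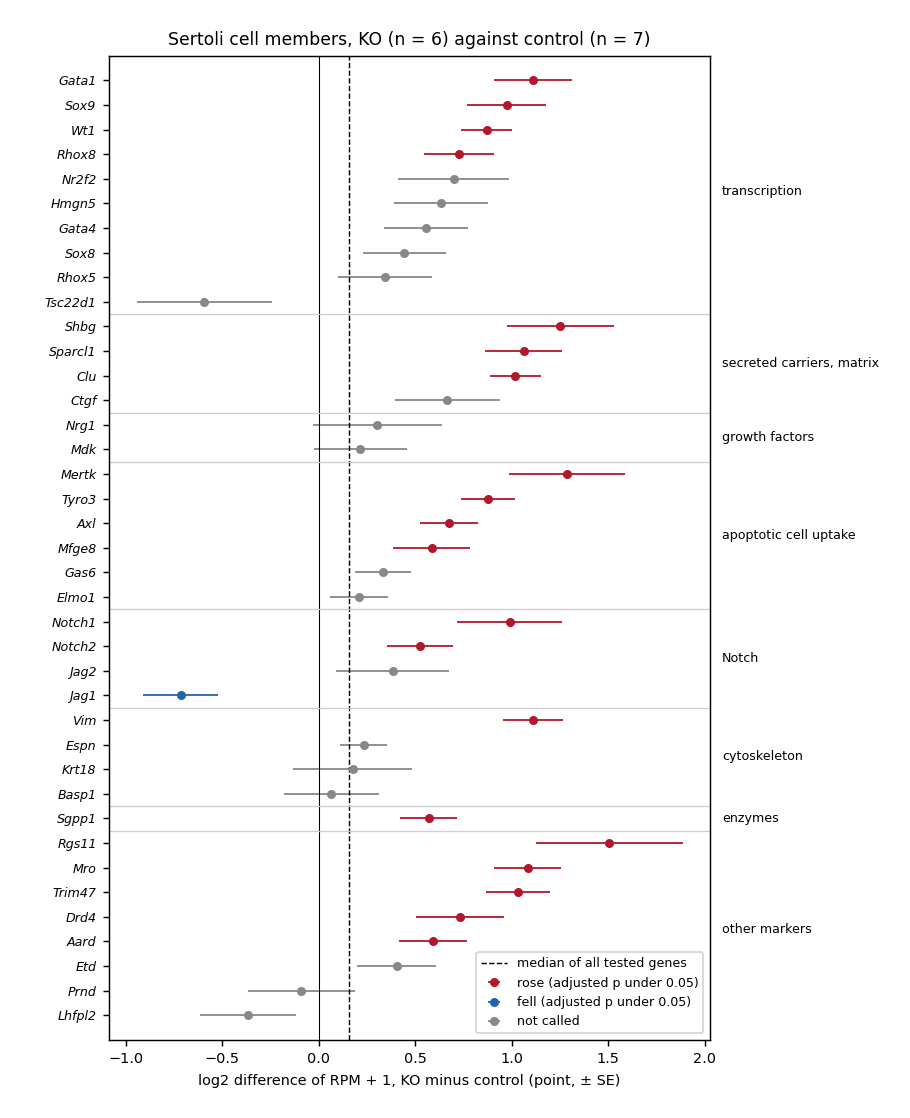
Log2 difference of RPM + 1 (x axis, libraries labelled KO minus controls, bars ± SE) for the 39 tested members, grouped by role. Red points rose, the blue point (Jag1) fell, grey points did not pass, and the dashed line is the median of all tested genes at 0.16.

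The scale matters to this count. RPM put 74.9% of all called genes on the higher side, whereas median-of-ratios scaling put 50.8% there and moved the median of all genes from 0.16 to 0.02. With that scaling 16 members rose, beside 10.7% of all tested genes, Jag1 fell, and the members' median was 0.45. Above the median of all genes lay 34 of 39, as with RPM. A common factor per library moves members and all genes nearly alike, so this last count could hardly change. Quantile normalization left 13 that rose, beside 8.99% of all tested genes.

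Among the transcription factors Wt1, Sox9, Gata1 and Rhox8 rose and none of the 10 tested fell. WT1 keeps adult Sertoli cells in their fate, and its gene stood at 23.5, 26.7 and 35.8 RPM (lowest, median, highest) in the controls. The number 1 libraries held 50.7, 54.3 and 62.6 RPM and the number 2 libraries 54.7, 57.7 and 39.3 RPM. No library labelled KO overlapped the controls, and the change was 1.83-fold (log2 0.87, SE 0.132, adjusted p = 8.98e-05). Sox9, the factor that starts Sertoli differentiation, was at 7.30, 10.8 and 17.4 RPM in the controls. In number 1 it was at 27.2, 25.4 and 24.9 RPM, and in number 2 at 24.4, 17.5 and 16.6 RPM. All but KO replicate 6 lay above the highest control (log2 0.97, SE 0.203, adjusted p = 0.00152).

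Gata1, a zinc-finger factor that testes make in Sertoli cells, showed the largest factor difference. Its controls stood at 8.09, 10.6 and 13.02 RPM, number 1 at 29.6, 31.2 and 37.8 RPM and number 2 at 16.4, 24.4 and 14.7 RPM. The groups did not overlap (log2 1.11, SE 0.203, adjusted p = 0.00049). The X-linked homeobox gene Rhox8 was at 8.09, 12.7 and 16.5 RPM in the controls, at 30.3, 19.6 and 20.6 RPM in number 1 and at 23.5, 20.3 and 17.0 RPM in number 2. It rose without overlap (log2 0.72, SE 0.181, adjusted p = 0.00608), a call lost with quantile normalization (adjusted p = 0.0801).

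Rhox5, the founding member of that homeobox cluster and an androgen-responsive gene of Sertoli cells, did not pass. It was at 8.86 ± 2.59 RPM (mean ± SD, n = 7) among controls and 11.8 ± 4.49 RPM (n = 6) among the KO labels (log2 0.34, adjusted p = 0.322). Sox8, a relative of Sox9, gave log2 0.44 (adjusted p = 0.139). Gata4, a factor of all somatic gonadal cells, gave 0.56 (adjusted p = 0.0664), and it passed without WT replicate 3 (0.0342), KO replicate 1 (0.0205) or KO replicate 6 (0.0498). Nr2f2, a nuclear receptor better known from interstitial cells, gave log2 0.70 (adjusted p = 0.0791), passing without WT replicate 2 (0.0458) or Het replicate 4 (0.0354). Hmgn5, which codes for a nucleosome-binding protein, was at 1.21, 2.94 and 3.34 RPM in the controls, at 5.60, 3.60 and 7.20 RPM in number 1 and at 2.66, 4.10 and 4.48 RPM in number 2. Pooled, it did not pass (log2 0.63, adjusted p = 0.0630). It passed for number 1 alone (log2 0.85, adjusted p = 0.0452) and in the pooled comparison without KO replicate 4 (0.0356).

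Tsc22d1, a leucine-zipper factor first known as a gene stimulated by TGF-beta, split the libraries labelled KO. The controls held 77.6, 123 and 262 RPM. Number 1 stood at 49.0, 52.6 and 36.3 RPM, below every control, while number 2 stood at 128, 225 and 167 RPM, within their range. The pooled difference was not called (log2 -0.59, SE 0.351, adjusted p = 0.229). Against the controls number 1 fell (log2 -1.53, adjusted p = 0.000377) and number 2 gave 0.34 (adjusted p = 0.421), and their own difference passed (log2 -1.87, adjusted p = 0.0112). Tsc22d1 was the only member called between the KO title numbers, where 0.179% of all tested genes were called. The call was lost without KO replicate 3, without KO replicate 5 and with no filter on low values.

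Secreted carriers made up the most abundant member and some of the larger differences. Clu codes for clusterin, the secreted chaperone that is a major Sertoli product, and per length it led all members with 408 RPM per kb of exon in the controls. The next was Prnd at 36.2. The controls of Clu stood at 1158, 1222 and 1978 RPM. Number 1 held 3310, 3037 and 3351 RPM and number 2 held 2296, 2819 and 2116 RPM, all above the controls (2.03-fold, log2 1.02, SE 0.132, adjusted p = 1.75e-05).

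Shbg, the gene of androgen-binding protein, was low in the controls at 5.05, 7.18 and 12.9 RPM. It stood at 30.7, 29.8 and 32.6 RPM in number 1, and at 10.9, 21.1 and 9.76 RPM in number 2. The number 1 libraries formed a narrow band above all controls, whereas KO replicates 4 and 6 lay inside the control range. Pooled, it rose 2.38-fold (log2 1.25, SE 0.278, adjusted p = 0.00249). Number 1 alone rose (log2 1.84, adjusted p = 8.71e-05), number 2 did not pass (0.66, adjusted p = 0.114), and the difference between the numbers was not called (log2 1.18, adjusted p = 0.130).

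Sparcl1, a matricellular protein related to SPARC, was at 15.7, 19.8 and 35.5 RPM in the controls. Number 1 held 34.6, 50.8 and 67.7 RPM and number 2 held 60.5, 39.2 and 43.6 RPM, so that KO replicate 1 alone fell within the controls (log2 1.06, SE 0.201, adjusted p = 0.000648). Ctgf, another matricellular protein, was at 6.47, 10.5 and 35.4 RPM in the controls and at 15.7 to 23.1 RPM under the KO label (log2 0.66, adjusted p = 0.0786). Its highest control was WT replicate 3, and without that library it passed (log2 0.92, adjusted p = 0.00193). The row overlaps another listed gene.

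The growth factor genes were near the limit of detection and none was called. Mdk, coding for midkine, was at 1.47 ± 0.539 RPM among controls and 1.84 ± 0.485 RPM under the KO label (log2 0.22, adjusted p = 0.554). Nrg1, a ligand of ERBB receptors, was at 1.45 ± 0.914 and 2.06 ± 1.41 RPM (log2 0.30, adjusted p = 0.550). The midkine relative Ptn was not tested, with 1 to 8 reads per library. Among all tested genes 18.4% rose and 6.18% fell, and 10.7% rose with median-of-ratios scaling. Of 18 tested receptor and ligand genes around these growth factors 5 rose and 2 fell, with a median of 0.42 (4 and 3 with that scaling). They include the integrin subunit Itgb1 (log2 0.99, adjusted p = 3.01e-05), the syndecan Sdc4 (0.90, adjusted p = 0.000186), the nucleolin gene Ncl (0.55, adjusted p = 0.00243) and the neuregulin gene Nrg2, which fell (log2 -0.78, adjusted p = 0.000136).

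**Figure D2:**
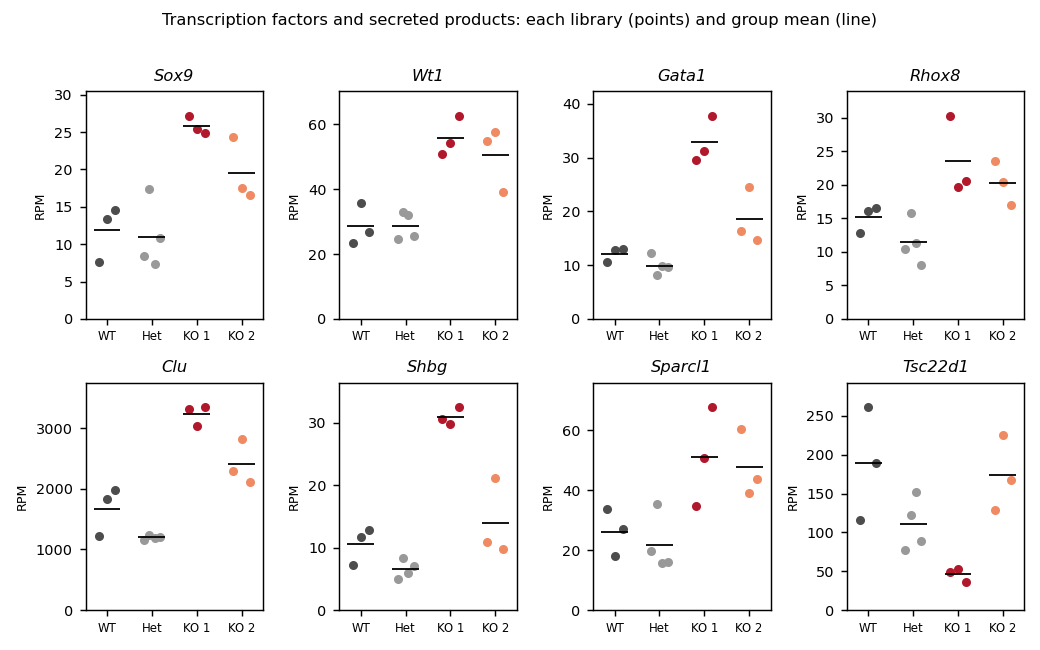
RPM (y axis, from 0) in each library (points) with group means (lines) for 8 transcription factor and secreted-product genes, in WT, Het, KO title number 1 (KO 1) and KO title number 2 (KO 2). Tsc22d1 stands below every control in number 1 only, and Shbg forms a band of 29.8 to 32.6 RPM there.

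All 3 receptor genes among the members that serve the uptake of dying cells rose. TYRO3, AXL and MERTK are receptor tyrosine kinases whose ligands, GAS6 and protein S, bind phosphatidylserine on the dying cell. Tyro3 was at 24.2, 28.2 and 37.9 RPM in the controls, at 60.7, 64.7 and 67.6 RPM in number 1 and at 44.5, 42.8 and 50.8 RPM in number 2. Its groups did not overlap, and number 1 lay above number 2 in every library (log2 0.88, SE 0.140, adjusted p = 0.000138). The difference between the numbers was not called (log2 0.48, adjusted p = 0.284).

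Axl had the highest level of the 3 per length, at 9.57 RPM per kb of exon in the controls against 4.76 for Tyro3 and 1.39 for Mertk. Its controls stood at 40.0, 46.2 and 58.2 RPM. Number 1 held 91.2, 87.6 and 110.9 RPM and number 2 held 50.5, 65.6 and 69.0 RPM, of which KO replicate 4 lay within the controls (log2 0.67, SE 0.151, adjusted p = 0.00268). Number 2 alone did not pass (log2 0.35, adjusted p = 0.118). Mertk, the receptor most tied to Sertoli cell phagocytosis, was at 2.15, 7.28 and 8.90 RPM in the controls. It stood at 7.71, 12.8 and 20.1 RPM in number 1 and at 13.3, 15.2 and 24.0 RPM in number 2, with KO replicate 1 within the controls (2.44-fold, log2 1.29, SE 0.298, adjusted p = 0.00353). Against WT alone Mertk gave log2 0.79 (adjusted p = 0.152), and its row shares bases with Gm14011.

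Of the bridging molecules among the members Mfge8 rose and Gas6 did not pass. Gas6 was at 61.0, 79.8 and 86.5 RPM in the controls and at 70.8, 92.5 and 149.6 RPM (lowest, median, highest) under the KO label (log2 0.33, SE 0.144, adjusted p = 0.0966), and it passed without KO replicate 5 (0.0421) or with title number as a covariate (0.0395). Mfge8, which links phosphatidylserine to integrins, was at 35.5, 71.0 and 81.9 RPM in the controls. It stood at 105.9, 87.0 and 82.6 RPM in number 1 and at 121, 137 and 51.4 RPM in number 2, and it rose (log2 0.58, SE 0.199, adjusted p = 0.0364). KO replicate 6 lay among the controls, and the call was lost with median-of-ratios scaling (adjusted p = 0.120), with quantile normalization (0.0980), with limma-voom (0.194), with no filter (0.0869) and without WT replicate 1, Het replicate 1 or 4, or KO replicate 1, 4 or 5 (0.0586 to 0.0943). Elmo1, the adaptor that passes the signal to Rac1, was at 46.4, 55.4 and 79.4 RPM in the controls, at 90.5, 90.5 and 64.0 RPM in number 1 and at 53.8, 60.9 and 49.7 RPM in number 2. The pooled difference did not pass (log2 0.21, adjusted p = 0.326), while Elmo1 rose in number 1 (0.48, adjusted p = 0.0282) and gave -0.07 in number 2 (adjusted p = 0.812).

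Other genes of uptake, 25 of them tested, included 10 that rose and none that fell, with a median of 0.39. Of all tested genes 18.4% rose and 6.18% fell. Pros1, the gene of protein S, rose from 39.7 ± 14.6 RPM to 69.9 ± 15.5 RPM (log2 0.84, adjusted p = 0.00328). Rac1, the GTPase under ELMO and DOCK proteins, went from 31.6 ± 6.74 to 55.9 ± 9.79 RPM (log2 0.82, adjusted p = 0.000748). Abca1, a lipid exporter of engulfing cells, gave log2 1.32 (adjusted p = 0.000279) and the uptake receptor gene Lrp1 1.13 (adjusted p = 0.000593). C1qa (log2 1.32, adjusted p = 0.000171), a complement gene made by macrophages, was also on this list. Macrophage and leukocyte markers moved too, with 12 of 17 tested that rose and none that fell (median log2 0.86), and their part in these results was not tested. The summed level of those markers was 864 to 1074 RPM in the controls, 1127 to 1283 RPM in number 1 and 1022 to 1101 RPM in number 2, of which Cx3cr1 held 837 ± 68.1 RPM in the controls. None of the 17 was at 0 in a whole group, and Ptprc, the common leukocyte antigen, was at 0.665 ± 0.830 RPM among controls and 1.90 ± 1.91 RPM under the KO label (log2 0.61, adjusted p = 0.293).

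Of the 4 Notch members Jag1 fell, Notch1 and Notch2 rose, and Jag2 did not pass. JAG1 on one cell activates Notch receptors on its neighbour, which frees their intracellular part to act with RBPJ on transcription. Jag1 stood at 43.5, 48.2 and 72.5 RPM in the controls, at 28.9, 50.6 and 48.6 RPM in number 1 and at 27.5, 31.0 and 17.4 RPM in number 2. KO replicates 2 and 3 lay within the controls and the other 4 below all of them (log2 -0.72, SE 0.193, adjusted p = 0.00969). The fall passed in number 2 (log2 -1.08, adjusted p = 0.00123) and not in number 1 (-0.35, adjusted p = 0.213), and the difference between the numbers was not called (0.73, adjusted p = 0.202).

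Notch1 was at 2.02, 5.32 and 8.58 RPM in the controls, at 8.83, 14.8 and 13.2 RPM in number 1 and at 15.3, 13.8 and 4.94 RPM in number 2. KO replicate 6 alone lay among the controls (log2 0.99, SE 0.273, adjusted p = 0.0115), and the call was lost with quantile normalization (0.0612) and limma-voom (0.0661). The row overlaps 2 other listed genes. Notch2 was at 8.81, 12.1 and 16.3 RPM in the controls, at 25.6, 16.7 and 15.4 RPM in number 1 and at 16.4, 15.3 and 18.2 RPM in number 2 (log2 0.52, SE 0.170, adjusted p = 0.0290). KO replicates 3 and 5 lay within the control range. The call was lost with median-of-ratios scaling (0.127), quantile normalization (0.375), limma-voom (0.106), title number as a covariate (0.0837), and without WT replicate 2 (0.0515), Het replicate 3 (0.0629) or KO replicate 1 (0.0806). Neither receptor passed in number 2 alone (adjusted p = 0.0947 for Notch1 and 0.181 for Notch2). Jag2 was at 3.40 ± 2.28 and 4.39 ± 1.51 RPM (log2 0.38, adjusted p = 0.366).

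Of 30 other tested genes of the Notch pathway 9 rose and 1 fell, with a median of 0.40 (5 rose and 1 fell with median-of-ratios scaling). Among all tested genes 18.4% rose and 6.18% fell, and 10.7% rose with that scaling. The receptor-cutting proteases Adam10 (log2 0.98, adjusted p = 7.2e-05) and Adam17 (0.78, adjusted p = 0.00171), the gamma-secretase gene Psen2 (1.18, adjusted p = 0.000147) and the regulator Dtx1 (from 21.3 ± 6.03 to 42.3 ± 3.34 RPM, adjusted p = 0.000128) rose. The gene of this list that fell was Neurl1a, a ubiquitin ligase of Notch ligands, from 12.8 ± 3.46 to 5.79 ± 3.38 RPM (log2 -1.11, adjusted p = 0.00518).

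**Figure D3:**
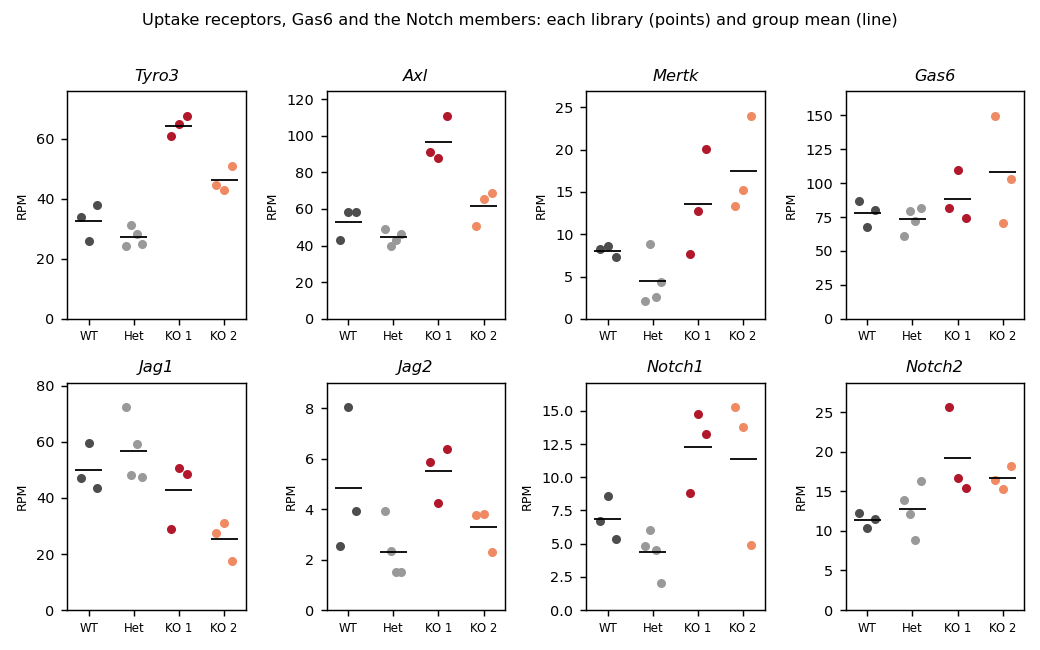
RPM (y axis, from 0) in each library (points) with group means (lines) for the uptake receptors, Gas6 and the Notch members, in WT, Het, KO title number 1 (KO 1) and KO title number 2 (KO 2). Tyro3 separates every library labelled KO from the controls, and Jag1 is lowest in number 2 at 17.4 to 31.0 RPM.

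Among the cytoskeletal members only Vim passed. It codes for vimentin, the intermediate filament of Sertoli and other mesenchymal cells, and stood at 39.8, 52.2 and 82.7 RPM in the controls. Number 1 held 138.7, 127 and 134 RPM and number 2 held 113, 114 and 85.2 RPM, all above the controls (2.16-fold, log2 1.11, SE 0.156, adjusted p = 3.99e-05). Espn, an actin-bundling protein of the junctions between Sertoli cells and spermatids, was at 32.3 ± 4.03 and 38.2 ± 4.82 RPM (log2 0.23, adjusted p = 0.174). Krt18, a keratin of immature Sertoli cells, was near the floor at 0.963 ± 0.940 and 1.11 ± 0.593 RPM (log2 0.17, adjusted p = 0.723). Basp1 gave log2 0.06 (adjusted p = 0.881).

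Of the 3 members listed as enzymes Sgpp1 alone was tested. It removes the phosphate from sphingosine 1-phosphate, and its gene was at 15.4, 19.0 and 22.1 RPM in the controls, at 28.3, 25.7 and 40.2 RPM in number 1 and at 29.5, 23.1 and 23.8 RPM in number 2. The groups did not overlap (log2 0.57, SE 0.146, adjusted p = 0.00710), and the call was lost with quantile normalization (0.123). Bcat1, a branched-chain aminotransferase, had 1 to 12 reads per library.

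The remaining markers, of mixed function, included 5 of 8 that rose and none that fell. Rgs11, a regulator of G protein signalling, had the largest SE of these 8 on the log2 scale. Its controls stood at 1.38, 2.83 and 8.05 RPM, number 1 at 12.2, 20.9 and 28.5 RPM and number 2 at 3.99, 15.0 and 5.28 RPM (log2 1.51, SE 0.379, adjusted p = 0.00629). KO replicates 4 and 6 lay within the controls, number 2 alone was not called (log2 0.83, adjusted p = 0.184), and the gene overlaps Arhgdig in the table. Mro, a testis gene also called maestro, stood at 13.4, 16.8 and 19.7 RPM in the controls, at 37.6, 47.1 and 50.1 RPM in number 1 and at 27.3, 32.0 and 23.8 RPM in number 2. It rose without overlap (log2 1.08, SE 0.174, adjusted p = 0.000151).

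Trim47, of the TRIM family of ubiquitin ligases, also separated the groups. The controls held 9.10, 11.99 and 18.8 RPM, number 1 held 29.3, 27.2 and 31.9 RPM and number 2 held 20.2, 27.3 and 22.6 RPM (log2 1.03, SE 0.165, adjusted p = 0.000141), and the row overlaps Trim65. Aard was at 14.5, 23.6 and 30.9 RPM in the controls, at 46.4, 26.8 and 43.5 RPM in number 1 and at 37.2, 32.9 and 27.2 RPM in number 2, with KO replicates 2 and 6 within the controls (log2 0.59, SE 0.176, adjusted p = 0.0180). Drd4, a dopamine receptor gene, was at 5.90, 8.30 and 12.2 RPM in the controls, 14.6, 21.0 and 25.8 RPM in number 1 and 9.53, 10.9 and 12.97 RPM in number 2 (log2 0.73, SE 0.227, adjusted p = 0.0228). Calls for Aard and Drd4 were lost with median-of-ratios scaling (adjusted p = 0.0717 and 0.0630), quantile normalization (0.152 and 0.166) and limma-voom (0.0990 and 0.0728). Drd4 also lost its call with title number as a covariate (0.0987) and without KO replicate 2 (0.0601) or 3 (0.0704).

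Etd, an X-linked testis gene, gave log2 0.40 (adjusted p = 0.158) and Lhfpl2, a tetraspan protein, -0.37 (adjusted p = 0.297). Prnd, which codes for the prion-like protein doppel, was at 76.6, 102 and 168 RPM in the controls and at 174, 55.5 and 65.9 RPM in number 1 and 137, 239 and 63.7 RPM in number 2. It ranged more widely among the libraries labelled KO than among the controls, without a call (log2 -0.09, adjusted p = 0.847), and its row overlaps the prion gene Prnp.

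The KO title numbers were then set side by side against the same 7 controls, which they share. Number 1 had 21 of 39 members that rose and Tsc22d1 that fell, beside 17% and 5.74% of all tested genes, with a median of 0.71. Number 2 had 10 that rose and Jag1 that fell, beside 7.8% and 4.64%, with a median of 0.48. The 10 were Sox9, Wt1, Gata1, Clu, Sparcl1, Tyro3, Mertk, Vim, Mro and Trim47. Against the 6 controls of number 2 alone 8 of the 10 still rose, beside 5.36% of all tested genes, and Jag1 fell (log2 -1.01, adjusted p = 0.00181), beside 3.97%. Sox9 (log2 0.72, adjusted p = 0.101) and Gata1 (0.73, adjusted p = 0.0536) did not pass there. This count fell to 2 without KO replicate 5 and to 4 without KO replicate 4. Title number 1 holds 1 control, so no such comparison could be made within it.

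Tested directly, number 1 exceeded number 2 in 29 of 39 members, with a median difference of 0.28 against 0.03 over all tested genes. Only Tsc22d1 was called, and 11 of the 39 members had an unadjusted p under 0.05, against a lower share, 12.3%, of all tested genes.

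**Figure D4:**
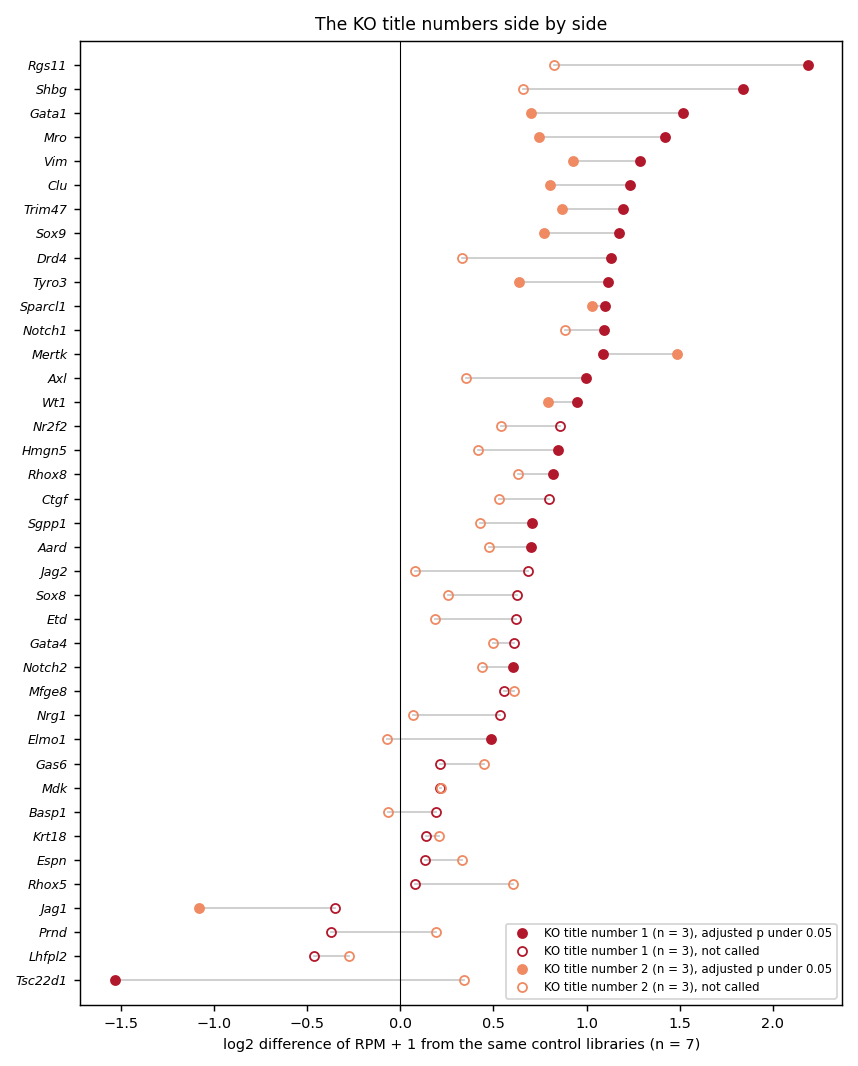
Log2 difference of RPM + 1 from the same 7 controls (x axis) for KO title number 1 (dark) and number 2 (light), with filled points where adjusted p was under 0.05, ordered by number 1. Number 1 lies to the right for most members, and Tsc22d1 and Jag1 part from the rest on the left.

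Each control genotype was also taken apart. Against the 4 Het libraries 20 members rose and 1 fell (16.9% and 5.15% of all tested genes), and against the 3 WT libraries 9 rose and none fell (6.05% and 3.34%). Those 9 were Sox9, Wt1, Gata1, Clu, Sparcl1, Tyro3, Vim, Mro and Trim47. Between Het and WT no member was called by limma, as no gene was (0%), and limma-voom also called no member. By limma 5 of 39 members had an unadjusted p under 0.05, against 5.89% of all tested genes. The Het minus WT log2 difference was below 0 in 29 of 39 members, with a median of -0.25 against -0.04 over all tested genes.

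Sertoli cell genes that are not members gave a like count. Among all tested genes 18.4% rose and 6.18% fell, and 10.7% rose with median-of-ratios scaling. Of 50 tested Sertoli cell genes 28 rose and 2 fell, with a median of 0.60 (22 and 2 with that scaling). Those with the lowest adjusted p were Fabp3, a fatty acid binding protein (log2 1.20, adjusted p = 1.33e-06), Nr5a1, the steroidogenic factor that Leydig cells share (1.15, adjusted p = 6.91e-06), Aldh1a1, a retinal dehydrogenase (0.99, adjusted p = 1.67e-05), and Cxcl12 (0.96, adjusted p = 0.000117). Trf, which codes for transferrin, rose from 27.1 ± 7.72 to 46.2 ± 11.1 RPM (log2 0.76, adjusted p = 0.00436). Of the Rhox cluster beside Rhox5 and Rhox8 only Rhox11 and Rhox13 could be tested and neither was called. Among the 50 genes, listed by name, those that fell were Cst8 (log2 -0.69, adjusted p = 0.000209) and Cldn3 (-1.08, adjusted p = 0.000557), a claudin of the blood-testis barrier. Which testis cells held the Cst8 RNA was not measured.

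Markers of other cell types also held genes that rose, to differing extents. Of all tested genes 18.4% rose and 6.18% fell, with a median of 0.16. Leydig cell markers had 13 of 15 that rose, with a median of 0.93, and among them Cyp17a1, Nr5a1, Akr1cl and Hsd17b3 had the lowest adjusted p (Nr5a1 stands on both lists). Their summed level was 2925 to 5104 RPM in the controls, 8175 to 11510 RPM in number 1 and 6850 to 7279 RPM in number 2, and in each group 2 of 18 were at 0. Interstitial fibroblast markers had 4 of 10 that rose (Col3a1, Dcn, Pdgfra and Col1a2, median 0.81) and endothelial markers 4 of 15 (Kdr, Cdh5, Cldn5 and Robo4, median 0.30). Cldn5 is also counted among the other Sertoli cell genes that rose. Smooth muscle and peritubular markers had 4 of 12 that rose and 1, Actg2, that fell (median 0.48), and their summed level overlapped between the groups. The count that rose was 2 after median-of-ratios scaling (10.7% of all tested genes), 1 after quantile normalization (8.99%) and 0 in number 2 alone (7.8%).

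Germ cell lists differed by stage, and are set beside the 18.4% of all tested genes that rose and 6.18% that fell. Of 13 spermatogonial markers 3 rose (Kit, Stra8 and Dazl), of 14 spermatocyte markers 1 rose (Hormad2) and 1 fell (Ybx2), of 15 round spermatid markers 2 fell (Tssk2 and Tssk1), and of 15 elongating spermatid markers 14 fell, with Oaz3, Spem1, Smcp and Prm2 at the lowest adjusted p. The medians were 0.19, 0.11, -0.06 and -0.95, and with median-of-ratios scaling they were 0.06, -0.04, -0.21 and -1.10. With that scaling spermatogonial markers had 2 that rose and 1 that fell, spermatocyte markers 0 and 2, round spermatid markers 0 and 4, and elongating spermatid markers 0 and 15. The summed level of the last list was 19427 to 24431 RPM in the controls, 10033 to 13670 RPM in number 1 and 9768 to 12322 RPM in number 2. RPM is a share of each library, and the part of this fall in the members' rise was not tested. The members' median less that of all genes was 0.43 with RPM and 0.42 with median-of-ratios scaling. Such scaling divides each library by a common factor, which moves members and all genes nearly alike. That gap could therefore hardly change, and it does not bear on the question.

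**Figure D5:**
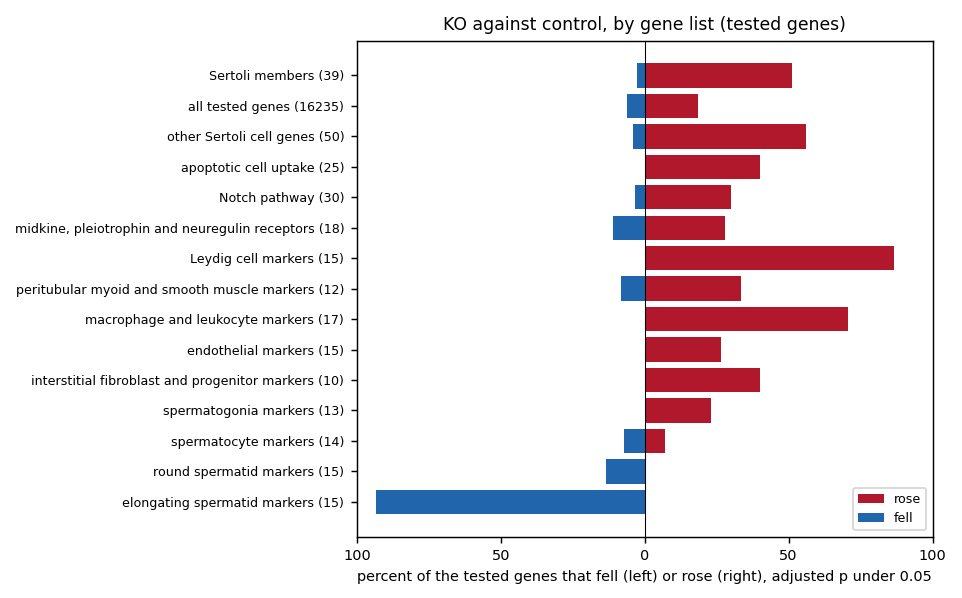
Percent of tested genes (x axis) that fell (blue, left) or rose (red, right) in libraries labelled KO against controls, for the members, all tested genes and the other lists, with the number tested in brackets. The members' red bar reaches 51.3% against 18.4% for all tested genes, and the elongating spermatid list lies almost wholly to the left.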

How the data were processed

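Total RNA from whole testes (about 2 ng per library) was made into 13 Smart-seq2 libraries with 11 PCR cycles, per the labels' protocols. FastQC 0.11.8, Trim Galore 0.6.6 and the mm10 genome are named in the submitters' processing notes. With the aligner, the counter and strandedness not given in the sources used here, reads of overlapping genes cannot be told apart. The authors deposited 1 table of log2 RPM per gene and library, with no counts.

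The deposited log2 values were turned back to RPM, which came out as whole reads for at least 99.964% of genes in every library (tolerance 0.01 read). A level of 3 reads was worth 0.27 to 0.665 RPM, and this covers counting error only. Genes averaging 1 RPM or more over the 13 libraries were fitted on log2(RPM + 1) with limma 3.58.1 (R 4.3.3, trend on mean level), and p-values were adjusted by Benjamini-Hochberg over all 16235 genes. Wfdc15a was also compared by exact permutation over libraries. The labels do not say that libraries of a group came from separate animals, and p-values measure the spread between these libraries. No replicate pair agreed within sampling noise.

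Alternatives were pseudocounts of 0.25 and 5, other filters, median-of-ratios and quantile scaling, limma-voom with TMM on the recovered reads, a replicate block, title number as a covariate or number 2 alone, and leaving out each library. The fits were tested on simulated data, with 48 to 50 genes per simulated fold. A 2-fold rise was called in 60% of genes in KO against control. It was called in 40% to 42% in number 2 against its controls, between the KO numbers and in Het against WT. For a 1.5-fold rise the shares were 40.8% and 10.2% to 14.3%. A difference that was not called is therefore not shown to be absent. Lengths came from GENCODE vM21 exons and promoters from RefSeq (GRCm38.p6). Members called in KO against control, in either KO title number against control or between those numbers are given by library, the others by mean, range or log2 difference, and up to 4 called genes of each further list by lowest adjusted p. Genes named beyond that rule (Trf, Pros1, Ptprc, Cx3cr1, Rhox11, Rhox13, Cldn3, Cst8, Actg2 and Neurl1a) were chosen after their values were seen. The members and lists were chosen with earlier results of these data known.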

Additional observations from a re-analysis of the deposited data

Results flagged for a closer look

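Single libraries stood far from the rest of their group in 8 of 117 sets of libraries checked (a member in the controls, in a genotype or in the libraries labelled KO), and chance alone gives about 1 in 20. In the libraries labelled KO, Nr2f2 reached 8.01 RPM in replicate 3 against 2.98 to 4.43 RPM in the others, Notch2 reached 25.6 RPM in replicate 1 against 15.3 to 18.2 RPM, and Sgpp1 reached 40.2 RPM in replicate 3 against 23.1 to 29.5 RPM. Among the controls, WT replicate 3 held 35.4 RPM of Ctgf against 6.47 to 14.2 RPM and 18.8 RPM of Trim47 against 9.10 to 13.2 RPM, and WT replicate 2 held 8.05 RPM of Jag2 against 1.51 to 3.92 RPM. Within the Het libraries, Vim was at 61.7 RPM in replicate 2 against 39.8 to 42.8 RPM, and Krt18 was at 2.53 RPM in replicate 4 against 0.36 to 0.631 RPM.

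Tsc22d1 differed between the KO title numbers by the test of that difference, with number 1 lower than number 2 by a log2 difference of -1.87 (limma adjusted p = 0.0112). The controls of number 1 consist of 1 Het library, so a difference within that number was not tested.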

How the results depend on the processing

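Against all controls 20 members rose in the libraries labelled KO, with 19 to 22 on leaving out 1 library at a time, 13 with quantile normalization and 8 with title number 2 only. For number 1 the count of 21 that rose became 13 with quantile normalization and ranged from 16 to 21 on leaving out 1 library. For number 2 the count of 10 became 6 with quantile normalization and ranged from 7 to 12. Against the number 2 controls the count of 8 became 2 with no filter, 5 with median-of-ratios scaling, 4 with quantile normalization and 4 with limma-voom, and ranged from 2 (without KO replicate 5) to 9. The fall of Tsc22d1 between the KO title numbers was not called with no filter or without KO replicate 3 or 5 (0 members, against 1). The causes were not tested. The log2 difference of Wfdc15a ranged from -0.86 to -0.46 on leaving out 1 library. For single members 809 values kept their side of the threshold, 32 lost a call and 10 gained one. The sign changed in 13 values of 3 members (Krt18, Basp1 and Prnd), none of them called.

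Libraries of the same replicate number did not deviate together. Of 10 pairs, 1 had a correlation over 0.1 (range -0.0835 to 0.126), and 2 of 11 libraries correlated best with their own replicate number. By title number, Het replicate 1, the only control of number 1, was also compared with the libraries labelled KO. It correlated at 0.126, 0.11 and 0.114 with KO replicates 1 to 3 of number 1. With KO replicates 4 to 6 of number 2 the values were -0.13, -0.129 and -0.0961. Deviations were taken from the mean of all KO libraries, so values above 0 for some KO libraries bring values below 0 for others. Within number 2, Het replicate 2 gave 0.18 with WT replicate 1 and -0.114 with WT replicate 3. No pattern by title number can be read from 1 control library. The cause was not tested. Replicate numbers 5 and 6 held no control, so the replicate block set KO replicates 5 and 6 aside. Under it number 2 rested on KO replicate 4 against Het replicate 4 alone. The comparisons with all controls and with its own controls were thus the same, with a members' median of 0.60. Such a pair cannot show whether the rise in number 2 holds. Pooled, Jag1 (log2 -0.46, limma adjusted p = 0.0777) and Notch2 (0.54, adjusted p = 0.0520) lost their calls under the block and Tsc22d1 gained one (-1.20, adjusted p = 0.00837). Depth limits members near 1 RPM, where 3 reads are up to 0.665 RPM.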
